A study of Mus musculus with 2 samples.

Results

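The Myc, Max and Mxd network was examined in NE4C cells through 9 genes chosen by symbol: Myc, Mycn, Max, Mxd1, Mxd3, Mxd4, Mxi1, Mnt and Mga. All 9 were present among the 16803 genes of the table, and all 9 had at least the 10 reads over both libraries that the test required. NE4C is an established mouse neural stem cell line, cloned from the brain vesicles of p53-deficient embryos. One library came from a normal culture (control) and one from a culture treated with homocysteine thiolactone (HTL), the reactive ring form of homocysteine that can attach to protein lysines. The libraries held 10350665 and 9102076 reads after rounding. Neither the dose nor the time of treatment behind these libraries was given in the labels, and whether the low-serum starvation described for other assays of the study was used here was not stated. With 1 library per condition no difference below has a replicate check, so every test and interval covers counting error between 2 libraries and compares those libraries, not the conditions.

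The proteins of this network share a basic helix-loop-helix leucine zipper and bind DNA as pairs in which Max is the common partner. Myc and Mycn paired with Max recruit histone acetyltransferases and raise transcription of genes for growth and ribosome production, whereas the Mxd proteins, Mxi1 and Mnt compete for Max and bring in Sin3 and histone deacetylases. Mga, which carries a T-box as well, joins Max to a Polycomb repressive complex. In the embryonic brain Mycn sustains the expansion of neural progenitors. All pairs favour the E-box, a palindrome of 6 bases.

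Among the 9 genes, Myc and Mnt were lower after HTL by both cutoffs of the study, which ask for an adjusted p no higher than 0.001 together with a log2 ratio of 1 or more in size. Levels in counts per total reads put Myc at 23.5% of its control level and Mnt at 44.0%. Mycn, Mga, Mxd3 and Mxi1 were also lower by the adjusted p alone, at 58.1%, 58.9%, 65.0% and 74.6% of control, but short of the log2 cutoff. Max, Mxd1 and Mxd4 did not pass. In all, 2 of 9 members were called lower and 0 higher, where 7.98% of the 13442 genes tested were called lower and 2.81% higher (10.8% in all). With trimmed-mean (TMM) scaling in place of column totals both members were still called, and the calls over all genes went from 1072 lower and 378 higher to 800 and 552. By the adjusted p alone 6 of 9 members were lower and 0 higher, where 24.1% of all genes tested were lower and 14.5% higher, and with TMM 5 of 9 were lower beside 18.5% lower and 20.1% higher. The 6 became 2 in edgeR's exact test at an assumed coefficient of variation of 0.1 between cultures, 1 at 0.2 and 0 at 0.4. Passing the adjusted p depends on read depth as well as on the size of a difference. The log2 cutoff alone was passed by the same 2 members, beside 12.2% of all genes at -1 or under and 4.72% at 1 or over. A log2 ratio under 0 was found for 8 of 9 members and for 58.7% of all genes. The median log2 ratio was -0.62 over the 9 members and -0.14 over all genes tested. Fewer cells of a type and less RNA per cell cannot be told apart in such bulk libraries.

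**Figure D1:**
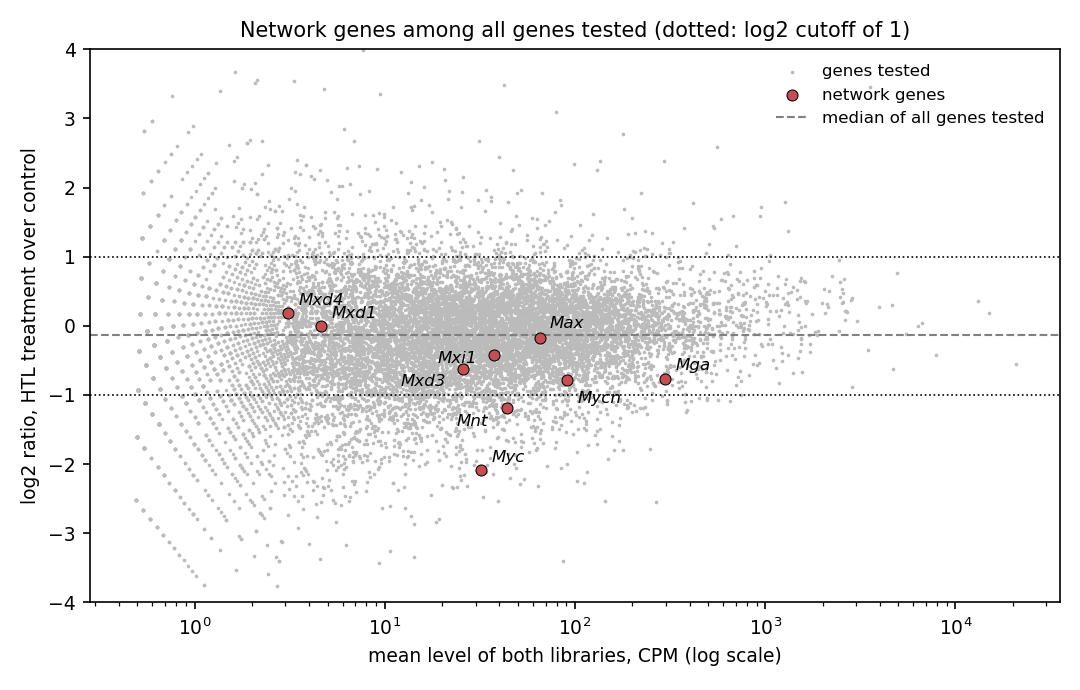
Log2 ratio of HTL treatment over control (y axis) against the mean level of both libraries in CPM, reads scaled to a common library total (x axis, log scale) for all genes tested (grey) and the 9 network genes (red). Myc at -2.09 and Mnt at -1.18 lie under the dotted line at -1, and Mxd4 is the member above 0; 59 genes beyond 4 in either direction are outside the axis.

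The E-box was looked for as CACGTG, whose reverse complement is itself, in the RefSeq promoter windows of GRCm38.p6 (250 bases before to 50 after each start). Windows were on hand for 8 members, all but Myc, and 3 of these 8 held a match: Max, Mnt and Mxd4. Counted by window, since Mxi1 has 3, these were 3 of 10 windows, and 7.15% of all 32851 promoter windows held a match. The 3 matches are printed 5′ to 3′ on the strand of the gene, with 12 bases on each side and the E-box in capitals, to show where the network's own site stands in its genes.
Max, position -3 (GRCm38 chr12:76962234-76962263, minus strand): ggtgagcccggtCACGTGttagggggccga
Mnt, position -123 (GRCm38 chr11:74830789-74830818, plus strand): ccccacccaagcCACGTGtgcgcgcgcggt
Mxd4, position -219 (GRCm38 chr5:34187912-34187941, minus strand): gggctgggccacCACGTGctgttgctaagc
Positions count from the start site. A match is a description of these letters and no evidence of binding.

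Myc (gene ID 17869; NCBIM37 chromosome 15, 61816946 to 61821929, plus strand) encodes the founding activator of the network. The Myc count was 538 in control and 111 after HTL, or 52.0 and 12.2 CPM. The log2 ratio for Myc came to -2.09, with an exact Clopper-Pearson 95% interval from -2.40 to -1.79, or 4.25 times lower. Its adjusted p was 2.58e-55 (two-sided exact binomial test, Benjamini-Hochberg over all genes). Of the 13442 genes tested, 269 had a lower log2 ratio. Genes of similar transcript length had a median of -0.11, and Myc was -1.97 from it.

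Mycn (gene ID 18109; chromosome 12, 12942902 to 12948720, minus strand) encodes the neural paralogue of Myc. The Mycn count was 1190 in control and 608 after HTL, for a log2 ratio of -0.78 (-0.93 to -0.64) with an adjusted p of 1.08e-27 in the same exact binomial test. The intervals of Myc and Mycn did not overlap. Because both genes were read in the same library, their balance does not depend on the scaling. Myc took 31.1% (29.0 to 33.4, exact) of the reads of the pair in control and 15.4% (12.9 to 18.3) after HTL. Mycn held the larger share of the pair in both libraries.

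Mycl, the third Myc-family gene and not one of the 9, was counted beside them (gene ID 16918; chromosome 4, 122672895 to 122679728, plus strand). Its count was 372 in control and 148 after HTL, with the log2 ratio at -1.14 (-1.43 to -0.87), called lower with an adjusted p of 1.25e-16 in the exact binomial test. Of the 3 Myc-family genes Myc and Mycl were thus called lower, and Mycn passed the adjusted p alone. Their summed level per length was 76.2 FPKM (fragments scaled to transcript length and library size) in control and 35.3 after HTL.

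Max (gene ID 17187; chromosome 12, 78038256 to 78063235, minus strand) encodes the shared partner. The Max count was 715 in control and 556 after HTL, which put the log2 ratio at -0.18 (-0.34 to -0.015), and an adjusted p of 0.0536 in the exact binomial test. Its distance from the median gene was -0.040. With the 3 other scalings its log2 ratio lay between -0.084 and -0.041. Max was used below as a reference within each library for the genes whose products pair with it.

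**Figure D2:**
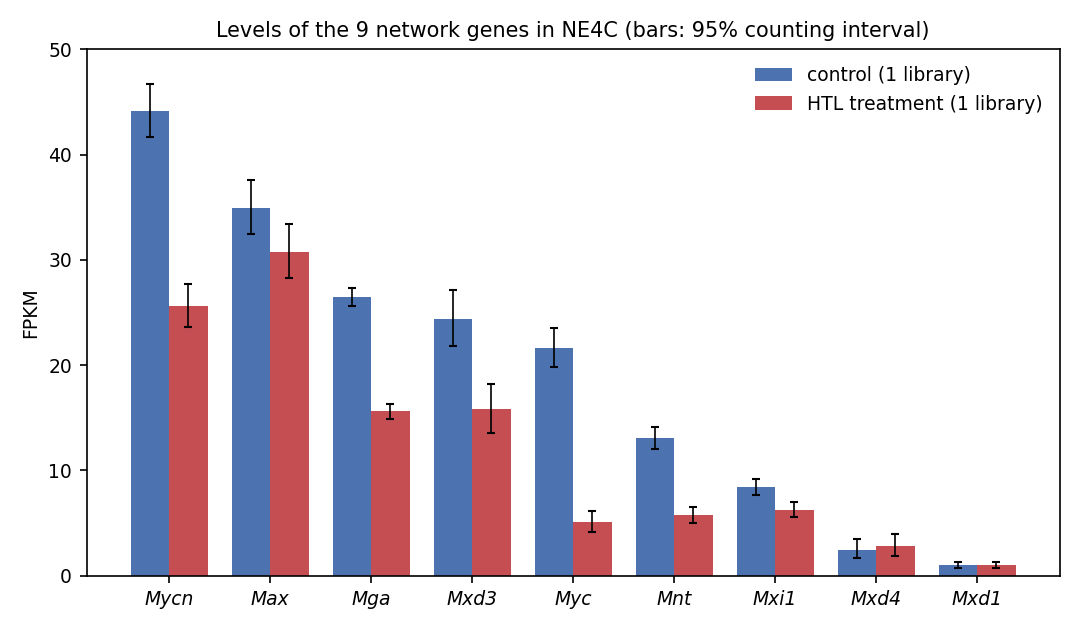
FPKM (y axis) of the 9 network genes in the control (blue) and HTL treatment (red) library, with bars for the 95% counting interval of each single library. Mycn is highest in control at 44.1 and Max highest after HTL at 30.8, while Myc goes from 21.6 to 5.07.

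On the per-length FPKM scale, levels in control ran in the order Mycn (44.1), Max (34.9), Mga (26.4), Mxd3 (24.4), Myc (21.6), Mnt (13.1), Mxi1 (8.40), Mxd4 (2.46) and Mxd1 (0.99). The counting intervals of neighbours overlapped for Mga with Mxd3 and for Mxd3 with Myc, and for no other neighbouring pair. After HTL the order was Max (30.8), Mycn (25.6), Mxd3 (15.8), Mga (15.6), Mxi1 (6.26), Mnt (5.74), Myc (5.07), Mxd4 (2.79) and Mxd1 (0.98). Here Mxd3 overlapped with Mga, Mxi1 with Mnt, and Mnt with Myc. Max and Mycn changed places at the top with intervals that did not overlap in either library, and Myc went from the fifth place to the seventh.

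Levels were next set against Max in the same library, which removes the scaling between libraries. The FPKM of Mycn was 1.26 times that of Max in control and 0.832 times after HTL. For Myc the ratio to Max was 0.619 in control and 0.165 after HTL. Together, Myc and Mycn stood at 1.88 times Max in control and at 0.996 times after HTL, so the summed activator level equalled about that of Max in the treated library. The 6 genes of the Max partners that act in repression (Mxd1, Mxd3, Mxd4, Mxi1, Mnt and Mga) summed to 2.17 times Max in control and 1.53 times after HTL. The quotient of Myc plus Mycn over these 6 genes, with Mycl left out, was 0.869 in control and 0.650 after HTL. These are ratios of message levels and carry no replicate error.

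**Figure D3:**
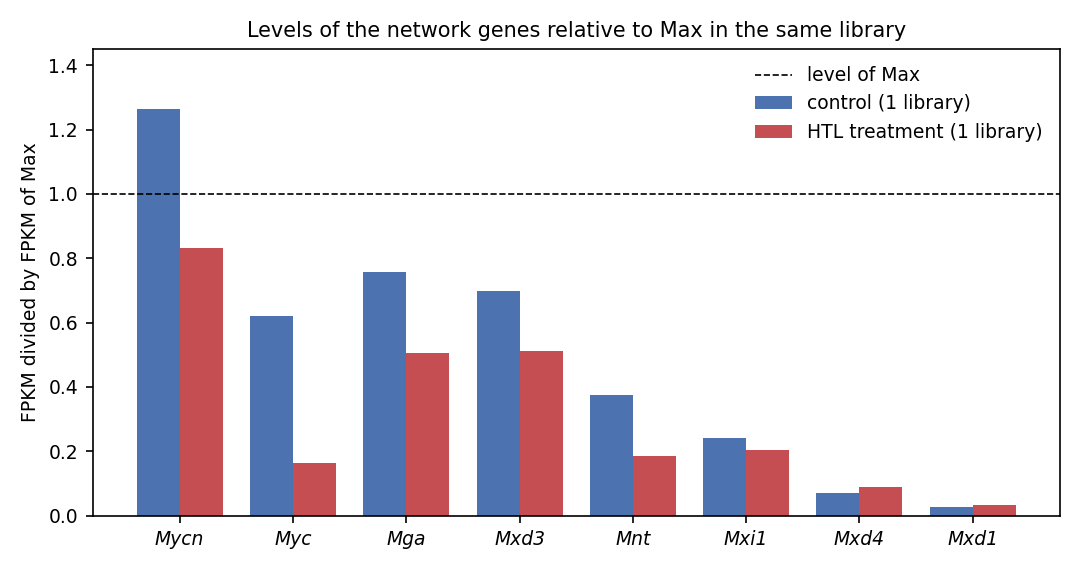
FPKM of each network gene divided by that of Max in the same library (y axis), for control (blue) and HTL treatment (red), with 1 library each and the dashed line at the level of Max. Mycn goes from 1.26 to 0.832 and Myc from 0.619 to 0.165, whereas the ratios of Mxd4 and Mxd1 are slightly higher after HTL.

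Of the antagonists, Mnt (gene ID 17428; chromosome 11, 74644422 to 74659227, plus strand) differed most. Mnt encodes a Max partner found in most proliferating and resting cells, which opposes Myc at shared sites. Its counts were 628 in control and 243 after HTL, a log2 ratio of -1.18 (-1.40 to -0.97), 2.27 times lower, with an adjusted p of 7.72e-29 in the exact binomial test. The interval reaches inside the log2 cutoff of 1. Genes of similar transcript length had a median of -0.20, and Mnt was -0.98 from it, just inside that cutoff. Mnt took 46.8% (44.1 to 49.5) of the reads of Mnt and Max in control and 30.4% (27.2 to 33.7) after HTL. Such read shares favour the longer transcript, here that of Mnt. In FPKM Mnt stood at 0.374 times Max in control and 0.187 times after HTL. An activator and an antagonist of the network were thus the 2 genes called, both in the lower direction.

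Mga (gene ID 29808; chromosome 2, 119722964 to 119795317, plus strand) had the most reads of any member, 3869 in control and 2004 after HTL, as the longest transcript at 13873 bases. Its log2 ratio was -0.76 (-0.84 to -0.69), the narrowest interval of the 9, with an adjusted p of 1.90e-84 in the exact binomial test. Longer genes tended to lower log2 ratios in these libraries: of 10 length classes the shortest had a median of 0.14 and the longest, which holds Mga, one of -0.38. Mga was -0.39 from the median of its class and -0.63 from that of all genes. What part of its difference goes with length was not tested.

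The 4 genes of the Mxd family encode partners that typically take over Max as cells leave the cycle, apart from Mxd3, which is found in proliferating progenitors. Mxd3 (gene ID 17121; chromosome 13, 55426529 to 55431119, minus strand) was counted at 324 and 185, with the log2 ratio at -0.62 (-0.89 to -0.36) and an adjusted p of 7.94e-06 in the exact binomial test. Its exons overlap those of Prelid1 on the opposite strand, which stood at 2391 and 2086 reads and was near its control level (log2 ratio -0.011, -0.097 to 0.074). Since the use of strand in the counting was not stated, reads of the overlap cannot be told apart and the value of Mxd3 is uncertain.

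Mxi1 (gene ID 17859; chromosome 19, 53384996 to 53450300, plus strand) was counted at 445 in control and 292 after HTL, with the log2 ratio at -0.42 (-0.64 to -0.21). Its adjusted p in the exact binomial test was 0.000292, beside 0.0155 with TMM, 0.0172 with the median of ratios and 0.00546 with the upper quartile, so of the 4 scalings Mxi1 passed the adjusted p with column totals only. The exons of Mxi1 overlap Gm10197 on the opposite strand.

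Mxd1 and Mxd4 were the scarcest members. Mxd1 (gene ID 17119; chromosome 6, 86597038 to 86619153, minus strand) was counted at 48 in control and 42 after HTL, with the log2 ratio at -0.0071 (-0.64 to 0.62) that was above 0 under each other scaling. Mxd4 (gene ID 17122; chromosome 5, 34516536 to 34530369, minus strand) was counted at 30 in each library, with the log2 ratio at 0.18 (-0.59 to 0.97). Both intervals reach beyond the -0.42 of Mxi1, so a difference of that size was not detectable at this depth, while both exclude the -0.78 of Mycn. The adjusted p was 1.0 for Mxd1 and 0.772 for Mxd4 in the exact binomial test.

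**Figure D4:**
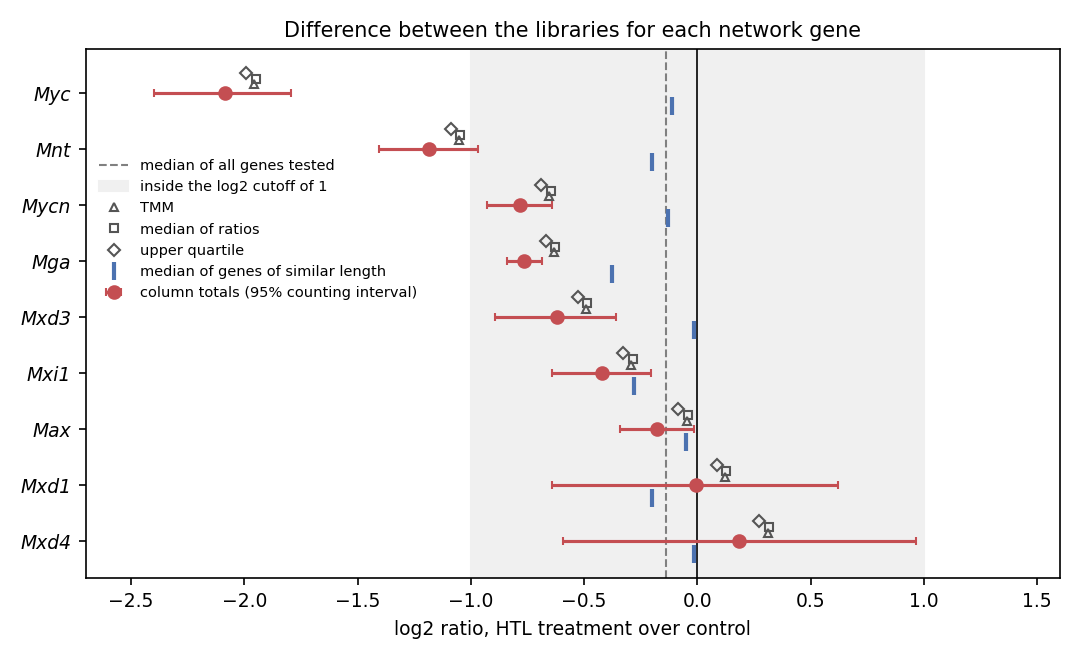
Log2 ratio of HTL treatment over control (x axis) for each network gene (y axis), with red points and 95% counting intervals for scaling to column totals, open symbols for 3 other scalings, blue ticks for the median of genes of similar length, and a dashed line for the median of all genes tested. Myc and Mnt lie outside the shaded band of the log2 cutoff with each scaling.

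Taking genes with a mean of 100 reads or more, those nearest to Myc in log2 ratio were Arl4c (-2.12; 1941 and 393 reads), Sema6a (-2.12; 570 and 115), Foxd3 (-2.05; 813 and 172), Adat1 (-2.05; 412 and 87) and Rbm5 (-2.05; 1409 and 299). The likeness is a difference of at most 0.038 in log2 ratio over 2 libraries, among 8527 candidate genes.

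The Mlx branch, a parallel set of factors in which Mlx takes the place of Max and Mlxip and Mlxipl respond to glucose, held no called gene. Mlx was counted at 391 and 329, with the log2 ratio at -0.064 (-0.28 to 0.15), which lay above 0 under each other scaling. Its exons overlap Psmc3ip on the opposite strand (228 and 120 reads). Mlxip, at 1165 and 874 reads, differed by -0.23 on the log2 scale (-0.36 to -0.10), and its adjusted p of 0.00099 in the exact binomial test was lost with the other scalings. Mlxipl, at 34 and 13 reads, stood at -1.17 (-2.25 to -0.24) with an adjusted p of 0.0169 in the exact binomial test. With Mycl, this list of 4 had 1 gene called lower (25%, beside 7.98% of all genes) and 0 higher. Its median was -0.69, which became -0.23 with a mean of at least 50 reads and -0.36 with the ratio of FPKM + 1.

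Among 15 coactivators and partners of Myc, 0 were called in either direction, where 10.8% of all genes tested were called. By the adjusted p alone 8 (53.3%) were lower and 5 (33.3%) higher, beside 24.1% and 14.5% of all genes, and the median log2 ratio was -0.35. For this list and those below, shares by the adjusted p were not compared at matched read depth. With TMM 7 (46.7%) were lower and 5 (33.3%) higher, beside 18.5% and 20.1%. The 8 genes lower with column totals were Ep400, a chromatin remodeller, at -0.65 (-0.72 to -0.58; 5104 and 2858 reads), Kat5, the TIP60 acetyltransferase, at -0.71, Brd8 at -0.78, Hcfc1 at -0.45, Kat2a at -0.45, Dmap1 at -0.42, Trrap at -0.39 and Ruvbl1 at -0.35. On the higher side, Ruvbl2, the paralogue of Ruvbl1, stood at 0.19 (0.11 to 0.28; 2499 and 2515 reads). Cdk9, the kinase of transcription elongation, stood at 0.41 (0.27 to 0.56; 735 and 861 reads) and Zbtb17, which encodes the Myc partner Miz1, at 0.45.

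Of 14 genes for the Sin3 and HDAC corepressors that Mxd and Mnt recruit, 1 (7.14%) was called lower, beside 7.98% of all genes, and 0 higher, with a median of -0.29. The called gene was Brms1l (210 and 91 reads), at -1.02 (-1.39 to -0.66), and it was short of the log2 cutoff with the other scalings (-0.89 with TMM), with 5 reads added and with the ratio of FPKM + 1. The deacetylase gene Hdac1 was higher, at 0.60 (0.53 to 0.67; 3049 and 4066 reads), and the scaffold genes differed in sign, Sin3a at -0.28 and Sin3b at 0.66. By the adjusted p alone 7 genes of the list (50%) were lower and 5 (35.7%) higher, beside 24.1% and 14.5% of all genes. With TMM 4 (28.6%) were lower and 5 (35.7%) higher, beside 18.5% and 20.1%.

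Among 10 further genes of the Mga-containing Polycomb complex PRC1.6, 1 (10%) was called lower, beside 7.98% of all genes, and 0 higher, and 5 lay on each side of 0. The called gene was Ring1, a ubiquitin ligase subunit, at -1.32 (-2.09 to -0.63; 66 and 23 reads). The list held 0 calls with the ratio of FPKM + 1, and with a mean of at least 50 reads, a filter that Ring1 did not pass. Its paralogue Rnf2 was at 0.64 (0.50 to 0.78; 735 and 1006 reads). Cbx3 at -0.95, Tfdp1 at -0.81 and Pcgf6 at -0.69 were on the side of Mga, whereas E2f6 at 0.58 and Rybp at 0.53 were on the other. By the adjusted p alone 5 (50%) were lower and 4 (40%) higher, beside 24.1% and 14.5% of all genes, and with TMM 4 each, beside 18.5% and 20.1%. The median of the list was -0.0061, and above 0 with each other scaling.

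The 15 genes of Myc protein turnover held 0 calls, where 10.8% of all genes tested were called. Fbxw7, the ubiquitin ligase adaptor that recognises phosphorylated Myc, stood at -0.34 (-0.54 to -0.14; 513 and 357 reads), short of the adjusted p cutoff. Usp28, which counters Fbxw7, stood at -0.63, and C330027C09Rik, the symbol used in the table for Cip2a, at -0.93 (864 and 399 reads). Aurka, which stabilises Mycn, was higher, at 0.50 (0.43 to 0.58; 2581 and 3211 reads). By the adjusted p alone 3 of the 15 (20%) were lower and 5 (33.3%) higher, beside 24.1% and 14.5% of all genes. With TMM 3 (20%) were lower and 6 (40%) higher, beside 18.5% and 20.1%. The median was -0.064, and above 0 with each other scaling. Protein levels of Myc and Mycn were not measured in these libraries.

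Classic targets that Myc activates were a list of 38 genes, of which 2 (5.26%) were called lower and 0 higher, beside 7.98% and 2.81% of all genes tested. The calls were Tert, the telomerase catalytic subunit (112 and 31 reads; log2 ratio -1.65, -2.29 to -1.08), and Hk2, a hexokinase (2720 and 1065 reads; -1.17, -1.27 to -1.06). The median log2 ratio of the list was -0.24, beside -0.14 over all genes tested. By the adjusted p alone 23 (60.5%) were lower and 6 (15.8%) higher, beside 24.1% and 14.5% of all genes. Several genes of this list have high counts, at which small differences pass the adjusted p, and depth was not matched. With TMM scaling 17 (44.7%) were lower and 6 (15.8%) higher, beside 18.5% and 20.1%. Among those lower, Ncl, nucleolin, stood at -0.88 (38351 and 18339 reads), Npm1, nucleophosmin, at -0.62 (59276 and 33849) and Hspd1, a mitochondrial chaperonin, at -0.83 (15565 and 7705). In the other direction Odc1, ornithine decarboxylase, stood at 0.44 (6719 and 8038 reads), Shmt2 at 0.47 and Eif4ebp1 at 0.84. Cdk4 and Fbl were at -0.024 and -0.0077. Each of the 38 genes had a log2 ratio above that of Myc. Only 269 of the 13442 genes tested lay below Myc, so this count does not set the list apart from other genes.

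Of 17 genes known to be held down by Myc, 3 (17.6%) were called higher and 2 (11.8%) lower, beside 2.81% and 7.98% of all genes tested. Gadd45a, a growth arrest gene, rose by 2.67 on the log2 scale (1.99 to 3.49; 19 and 109 reads). Ddit3, which encodes the stress factor CHOP, rose by 2.15 (1.84 to 2.49; 98 and 385 reads). Gadd45b rose by 1.27 (0.83 to 1.75; 60 and 128 reads). These 3 are also known targets of cell stress signalling, and the part of Myc or of stress in their values was not tested. Ndrg1 (189 and 45 reads) was lower, at -1.87 (-2.39 to -1.41), as was Pdgfrb (112 and 46 reads), at -1.09 (-1.63 to -0.59), the latter short of the cutoff with the other scalings (-0.96 with TMM) and with the ratio of FPKM + 1. Cdkn1a, the best-known Myc-repressed cell cycle inhibitor, had 8 and 16 reads and an adjusted p of 0.104 in the exact binomial test, and Cdkn1b stood at -0.21 (661 and 503 reads). The median of the list was 0.0048, beside 0.13 with TMM, 0.14 with the median of ratios and 0.28 with a mean of at least 50 reads. Exons of Ddit3, Gadd45a and Ndrg1 overlap genes on the opposite strand, so their reads are uncertain. Mars, which overlaps Ddit3, had 1137 and 1393 reads, and E230016M11Rik, which overlaps Gadd45a, had 3 and 8.

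**Figure D5:**
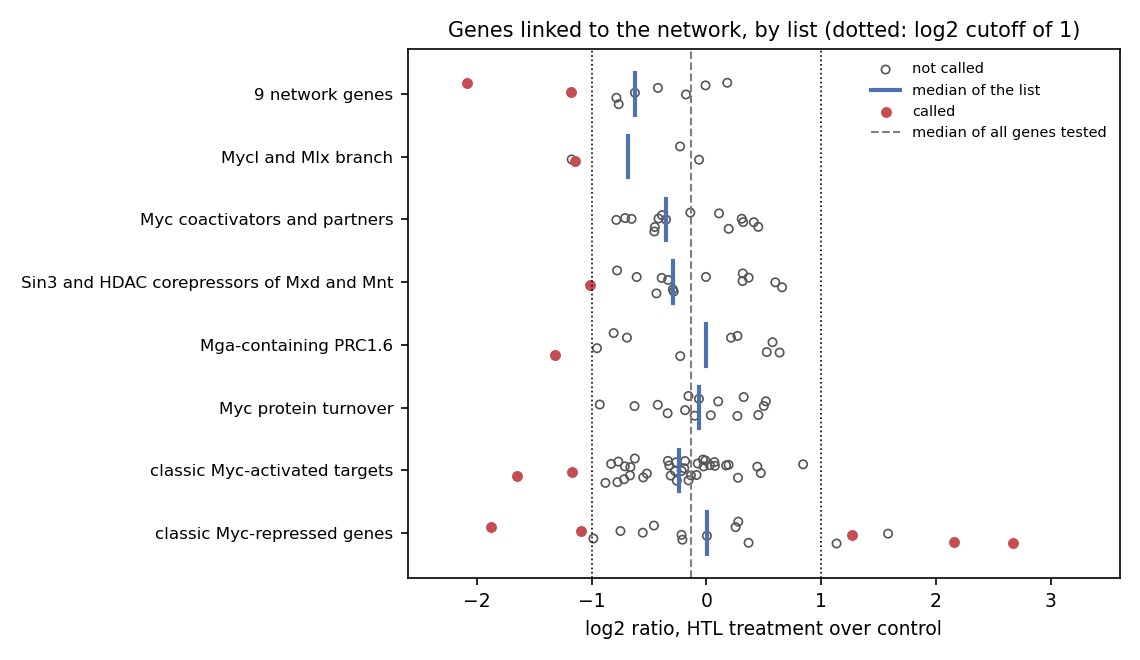
Log2 ratio of HTL treatment over control (x axis) for the 9 network genes and 7 lists of linked genes (y axis), each point a gene, red where called and open where not, with a blue line for the list's median. The medians run from -0.69 for Mycl and the Mlx branch to 0.0048 for Myc-repressed genes, beside -0.14 (dashed) for all genes tested.

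Markers of the labelled cell type were present, with Nes at 25.1 FPKM in control and 24.1 after HTL and Vim at 78.5 and 38.8, whereas Fabp7 had 2 reads in each library. Sox2, a neural stem cell factor, was at 34.7 and 12.6 FPKM. Summed over 9 neural stem or progenitor markers the level was 193 FPKM in control and 138 after HTL. Sox2, Sox1 and Vim were called lower, Vim at a log2 ratio of -1.01 that the TMM shift of 0.13 takes short of the cutoff, and Notch1 was called higher (1.24 and 2.63 FPKM), while Prom1 stood at 11.9 and 18.3, Msi1 at 38.7 and 39.5 and Pax6 at 1.76 and 1.94. The 6 neuronal markers summed to 22 and 28.7 FPKM. Tubb3 went from 16.3 to 24.8, Dcx was called lower (0.93 and 0.34), and Map2, Syp and Snap25 were below and Rbfox3 above their control levels without a call. The markers listed for astrocytes (2 of 4), oligodendrocytes (3 of 4), microglia (2 of 4) and fibroblasts (4 of 4) summed to at most 4.32 FPKM per type in either library, and the astrocyte marker Gfap had 2 and 0 reads, whereas Aldh1l1, the other one listed, was called higher (21 and 56 reads). The part of these marker levels in the values of the network genes was not tested.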

How the data were processed

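Total RNA of 1 control and 1 HTL-treated NE4C culture was sequenced on a BGISEQ-500. Sample titles gave the groups. The methods of the study state mapping of clean tags against mouse genome and gene references, then counting of matched reads and their normalization to RPKM with RSEM (spelled RESM there). The file header names the normalized values FPKM. Libraries came from a TruSeq kit, per the labels. The submitters' processing notes name the build mm9. Mapper, versions, annotation release and use of strand are not given in the sources used here. The authors deposited estimated counts, not normalized, and FPKM values scaled by length and library size. Their log2 ratio, p-value and FDR columns were not used.

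Estimated counts were rounded. Reads of a gene were compared with the library totals (two-sided exact binomial test, Benjamini-Hochberg over 13442 genes, SciPy 1.17.1), 0.5 read was added for log2 ratios, and intervals are exact Clopper-Pearson. No molecular identifiers are mentioned in the methods, so these cover counting error only. The quasi-likelihood test of edgeR 4.0.16 could not be fitted without replicates. Its exact test was run with assumed coefficients of variation. On simulated reads 200 of 200 genes changed by 4-fold were recovered. FPKM intervals scale the Poisson interval of the reads. Coordinates are from GENCODE M1 (NCBIM37, the same assembly as mm9).

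Members and lists were chosen with earlier results of these data known. Named are the 9 members, Mycl, Mlx, Mlxip and Mlxipl, up to 2 called rises and 2 called falls per list, and the 5 genes nearest to Myc. Other genes named were chosen after their values were seen. A planned comparison of genes with and without a promoter E-box was void, because 79.0% of the genes tested had a promoter window, under the 80% required.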

Additional observations from a re-analysis of the deposited data

How the results depend on the processing

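No paired analysis was possible because 1 library stood for each group, which also left no replicate to omit. Myc and Mnt were called lower with each of 4 scalings, without the filter on low counts, with a mean of at least 50 reads, with 5 reads added and with the ratio of FPKM + 1. With column totals, the count of 2 members became 6 without the log2 cutoff and 1 (Myc) with a log2 cutoff of 2. Myc was short of that cutoff with the other scalings, at -1.96 with TMM, -1.95 with the median of ratios and -1.99 with the upper quartile. In edgeR's exact test the count of members was 1 (Myc, adjusted p 0.000508, beside 0.0879 for Mnt) if cultures vary by a coefficient of 0.2, and 0 if by 0.4, where the adjusted p was 1.0 for both. The error between cultures was not measured here. Mxd1 turned to 0.12 with TMM, 0.13 with the median of ratios and 0.085 with the upper quartile, while Mxd4 stayed above 0 and the other 7 members below 0. The count of 1450 genes became 816 with FPKM + 1, 2280 without the test, 5195 without the log2 cutoff, 287 with a log2 cutoff of 2, and 120 and 6 at coefficients of 0.2 and 0.4. TMM raised log2 ratios by 0.13, the median of ratios by 0.14 and the upper quartile by 0.093, and the share of lower calls went from 73.9% to 59.2%, 58.5% and 63.3%. With TMM and the median of ratios, list medians moved to -0.22 and -0.21 for coactivators, -0.16 and -0.15 for corepressors, 0.12 and 0.13 for PRC1.6, and -0.11 and -0.099 for activated targets (-0.14 with the upper quartile). With a mean of at least 50 reads, the median was 0.21 for PRC1.6 and -0.23 for Mycl and the Mlx branch, which was -0.36 with FPKM + 1.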
